A study of Mus musculus with 12 samples.

Results

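The genes described here encode the contractile apparatus of striated muscle and the proteins that move calcium in and out of its cytoplasm, with the energy supply and the neuromuscular factors that go with them. There were 44 genes, taken as a named list without the myosins, out of 18194 genes with a usable probe set on the array. Each gene was followed through 1 probe set, the one with the highest mean over 12 arrays among those that the array annotation assigned to that gene only. A probe set is a group of short probes to 1 transcript region. By role, 13 genes belonged to the thin filament, 13 to the Z disc, titin and M band, 9 to calcium release, storage and uptake, 5 to energy supply, and 4 to the acetylcholine receptor and the myogenic factors.

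RNA came from whole mouse ears, not from isolated muscle, and was hybridised to Affymetrix whole-genome mouse arrays. The mutants were homozygous for Spade (Spade/Spade), and the controls were their wild-type (WT) littermates. Both genotypes were sampled at 2, 4 and 6 weeks of age, with 2 arrays in each of 6 groups. The labels number the samples without naming animals, strain, sex or any agent given, so a p-value speaks to the spread among these samples alone, and that spread may be technical.

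Skeletal muscle contracts when an action potential reaches the voltage-sensing calcium channel of the transverse tubule, which opens the ryanodine receptor of the sarcoplasmic reticulum. The released calcium binds troponin C, troponin I lets go of actin, and tropomyosin moves aside so that myosin can pull on the thin filament. The SERCA pumps then return the calcium to the store, where calsequestrin holds it. Fast and slow fibres use different isoforms of many of these proteins, and slow fibres are rich in the oxygen carrier myoglobin. The ear carries thin sheets of skeletal muscle at its base and along the auricle, beside cartilage, skin, hair follicles and fat.

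Promoter windows show the sequence around the starts of genes that the results turn on, and RefSeq (build GRCm38.p6) gave such windows of 250 bases before to 50 after the start for 32 of the 44 genes. The E-box CAGCTG, a preferred site of the myogenic factors, was present on at least 1 window of 18 of these 32 genes (56.2%), against 18.3% of 27025 genes with a window of the same length. The general E-box CANNTG, which includes every CAGCTG, occurred in 93.8% of the muscle genes and 75.0% of all genes. A MEF2 site was found in 12.5% against 3.7%, a CArG box (the site of serum response factor) in 12.5% against 1.8%, and TATAAA in 9.4% against 15.7%. Both strands were searched, and a match is a description of letters, not evidence of binding. In the windows printed here, 5′ to 3′ on the gene's own strand, capitals mark CAGCTG, the MEF2 site, the CArG box and TATAAA. Mb lies on the minus strand (chr15:77022738-77023037, 1 of 3 windows of this gene, shown because it holds CAGCTG at base -133), Tnnt1 on the minus strand (chr7:4515926-4516225, TATAAA at -30), Casq2 on the plus strand (chr3:102086165-102086464, MEF2 site at -69), and Acta1 on the minus strand (chr8:123894726-123895025, CAGCTG at -221, CArG box at -73 and TATAAA at -7).
Mb: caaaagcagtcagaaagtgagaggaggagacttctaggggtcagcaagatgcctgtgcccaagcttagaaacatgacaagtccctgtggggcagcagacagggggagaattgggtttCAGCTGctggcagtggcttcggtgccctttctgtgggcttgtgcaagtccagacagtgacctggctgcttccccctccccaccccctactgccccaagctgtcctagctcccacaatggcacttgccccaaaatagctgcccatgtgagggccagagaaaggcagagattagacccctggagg
Tnnt1: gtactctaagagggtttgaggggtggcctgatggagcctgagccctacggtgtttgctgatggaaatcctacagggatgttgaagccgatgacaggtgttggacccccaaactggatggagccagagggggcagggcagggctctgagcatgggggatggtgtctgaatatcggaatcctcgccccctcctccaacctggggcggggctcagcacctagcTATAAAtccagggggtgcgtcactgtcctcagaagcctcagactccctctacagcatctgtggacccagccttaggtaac
Casq2: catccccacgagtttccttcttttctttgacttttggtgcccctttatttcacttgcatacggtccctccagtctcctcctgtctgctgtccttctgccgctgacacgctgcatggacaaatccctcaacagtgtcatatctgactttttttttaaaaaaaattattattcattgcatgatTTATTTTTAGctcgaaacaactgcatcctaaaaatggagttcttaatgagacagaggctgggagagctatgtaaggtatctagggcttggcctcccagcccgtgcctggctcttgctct
Acta1: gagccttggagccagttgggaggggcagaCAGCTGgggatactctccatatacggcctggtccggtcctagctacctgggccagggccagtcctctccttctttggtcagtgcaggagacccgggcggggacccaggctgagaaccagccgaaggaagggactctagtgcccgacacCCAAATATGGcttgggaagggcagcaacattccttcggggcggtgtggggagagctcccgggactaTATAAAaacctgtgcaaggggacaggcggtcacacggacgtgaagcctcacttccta
Mb, Tnnt1 and Casq2 passed a test between ages, described later, and each window set out holds a marked motif. The 3 differ in which of the searched motifs they hold. Ryr1 passed as well, but its window holds none of the searched motifs and is not printed. Tcap and Myom2, which also passed, have no window. The window of skeletal alpha-actin (Acta1) is set beside the others as the window with 3 of the motifs.

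Most genes of the list were detected in these ears: 39 of the 44 genes were called present on all 12 arrays and 2 more on 11. Of all probe sets, 52.35% to 58.07% were called present on an array. Myog was called present on 5 arrays. The log2 GCRMA value, the authors' background-corrected and normalized probe set level, reached 15.51 for Acta1, the actin of skeletal muscle thin filaments. Chrng, the embryonic gamma subunit of the acetylcholine receptor, read 2.14, the lowest value of the table, on all 12 arrays and was called present on none. Myod1, a myogenic determination factor, stayed between 2.14 and 2.40. These 2 genes did not reach 4 on at least 2 arrays and were not tested, which left 42 genes among 11984 tested. Of 7 heart muscle markers, Nppa, Nppb, Tnni3, Myl7, Gata4 and Nkx2-5 were called present on 0 arrays, and Ankrd1 on all 12. The cardiac isoforms Tnnt2, Tnnc1, Casq2 and Actc1, which developing or slow skeletal muscle also uses, were thus measured without 6 of the 7 markers.

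**Figure D1:**
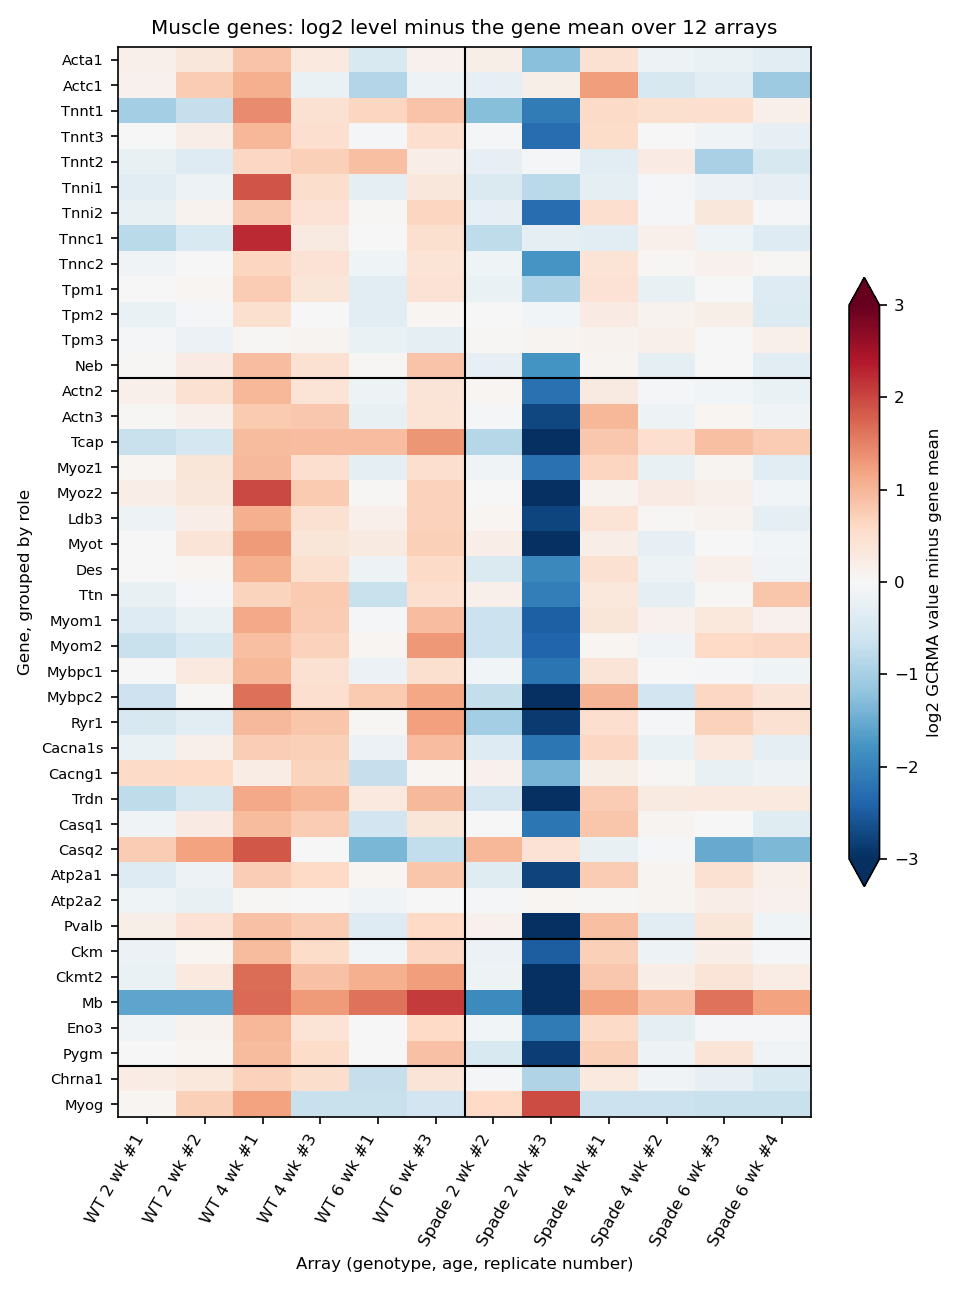
Heat map of 42 tested genes (rows, grouped by role and separated by lines in the order thin filament, Z disc with titin and M band, calcium handling, energy supply, receptor and myogenic factors) on 12 arrays (columns, WT left and Spade right). Colour is the log2 GCRMA value minus the gene's mean over 12 arrays, with values beyond 3 drawn at the end of the scale; the column of 2-week Spade replicate 3 is blue for most genes, while Myog is red there.

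Across arrays the genes moved together, and 1 array stood far from its partner before any comparison was made. Mutant replicate 3 at 2 weeks was at least 2-fold lower than mutant replicate 2 of the same age for 30 of 42 genes, against 4.72% of all genes tested. The median difference of the 42 genes between these arrays was -1.94 on the log2 scale, and the correlation of the 2 arrays over all genes was 0.939, against 0.985 to 0.994 in the other groups. Markers of other tissues moved on the same array: 11 hair shaft genes were higher by a median of 8.02, 14 cartilage genes were lower by a median difference of -1.27, 10 adipocyte genes had a median of -0.96, and 10 epidermal keratinocyte genes -0.02. Their part in the muscle values was not tested. In whole-tissue RNA, fewer muscle cells and less RNA per muscle cell cannot be told apart. The shares of probe sets called present, 52.35% to 58.07%, did not set this array apart, at 56.04%.

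The loss of signal on that array was uneven among the genes. Mitochondrial creatine kinase (Ckmt2), which hands phosphate from mitochondria to creatine, read 9.89 on replicate 2 and 3.62 on replicate 3, the lowest difference of all at -6.27. Myoglobin (Mb) read 10.21 and 5.57, and telethonin (Tcap), which caps titin at the Z disc, read 10.26 and 6.04. The slow calsarcin Myoz2, which anchors calcineurin at the Z disc, read 9.35 and 4.92. All 13 Z disc, titin and M band genes and all 5 energy genes were lower on replicate 3, with medians of -2.30 and -2.35.

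A few genes did not share that loss. Myogenin (Myog), the factor that drives myoblasts to differentiate, read 3.56 on replicate 2 and 4.92 on replicate 3. This was the highest difference, at 1.36, and Myog was the 1 gene at least 2-fold higher there, against 5.87% of all genes. It was among the tested genes only through this array and WT replicate 1 at 4 weeks, so its higher value here is not support. The slow and cardiac troponin C (Tnnc1) read 7.88 and 8.38, cardiac troponin T (Tnnt2) 8.52 and 8.70, and cardiac actin (Actc1) 8.93 and 9.36. The thin filament list as a whole had a smaller median, -0.75, with 9 of 13 genes lower. Across the 42 genes, this difference between replicates and the WT difference from 2 to 4 weeks had a Pearson correlation of -0.44 and a Spearman correlation of -0.41, against -0.31 and -0.05 over all 11984 genes. The genes share arrays and fibres and are not independent points, so no p is given.

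**Figure D2:**
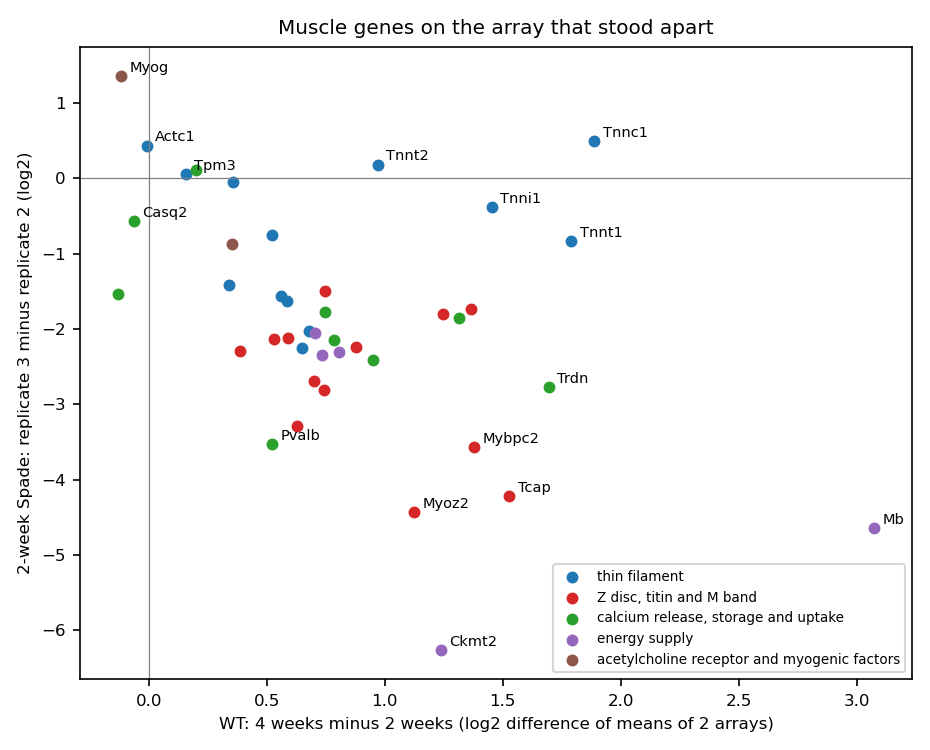
Each point is 1 of 42 genes, coloured by role. The x axis is the WT log2 difference of 4 minus 2 weeks (means of 2 arrays each) and the y axis the log2 difference of replicate 3 minus replicate 2 in 2-week Spade ears; Mb lies at 3.08 on x and Ckmt2 lowest on y at -6.27, while Tnnc1, Tnnt2, Actc1 and Myog lie above 0 on y.

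The WT replicates at 4 weeks also differed from each other. Replicate 1 was at least 2-fold higher than replicate 3 for 7 of 42 genes, against 1.49% of all genes tested. The 7 were Tnnc1, Casq2, Myog, Tnni1, Actc1, Myoz2 and Mybpc2, and of these all but Mybpc2, the fast myosin binding protein C, are isoforms or factors of slow, cardiac or immature muscle. Other slow or cardiac isoforms did not all share this: Tnnt1 differed by 0.947, but Tnnt2 by -0.08, Tpm3 by -0.054 and Atp2a2 by 0.006. Myog was among the tested genes only through WT replicate 1 and mutant replicate 3 at 2 weeks, so its place among the 7 is not support. Tnnc1 read 10.88 on replicate 1 and 8.90 on replicate 3, and cardiac calsequestrin (Casq2) read 10.12 and 8.25. Slow troponin I (Tnni1) was higher on replicate 1 by 1.37. Other cell types differed between these arrays too: all 10 macrophage genes (median 0.52) and all 8 endothelial genes (median 0.23) were higher on replicate 1, and their part in the muscle difference was not tested. In WT at 6 weeks, the median absolute difference between the replicates was 0.64 over the 42 genes, against 0.19 over all genes tested. In the mutants at 4 weeks it was 0.495, against 0.17.

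The comparison of Spade with WT asks whether the mutant ear differs in its muscle genes. Averaged over the 3 ages, 39 of the 42 fitted differences were below 0 and their median was -0.66, against a median of -0.03 over all genes tested, of which 57.6% were below 0. In the limma fit with Benjamini-Hochberg adjustment, 0 of 42 genes passed an adjusted p of 0.05, against 0.643% of all genes tested, and 11 had an unadjusted p under 0.05, as did 1777 of all 11984 genes. Without mutant replicate 3 at 2 weeks, the median was -0.33, 38 differences were below 0 and again 0 passed, against 0.809% of all genes. With that array kept and its partner left out instead, 30 of 42 passed, against 8.93%. The average difference and its count of calls therefore turned on which of the 2-week mutant arrays was in the fit.

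**Figure D3:**
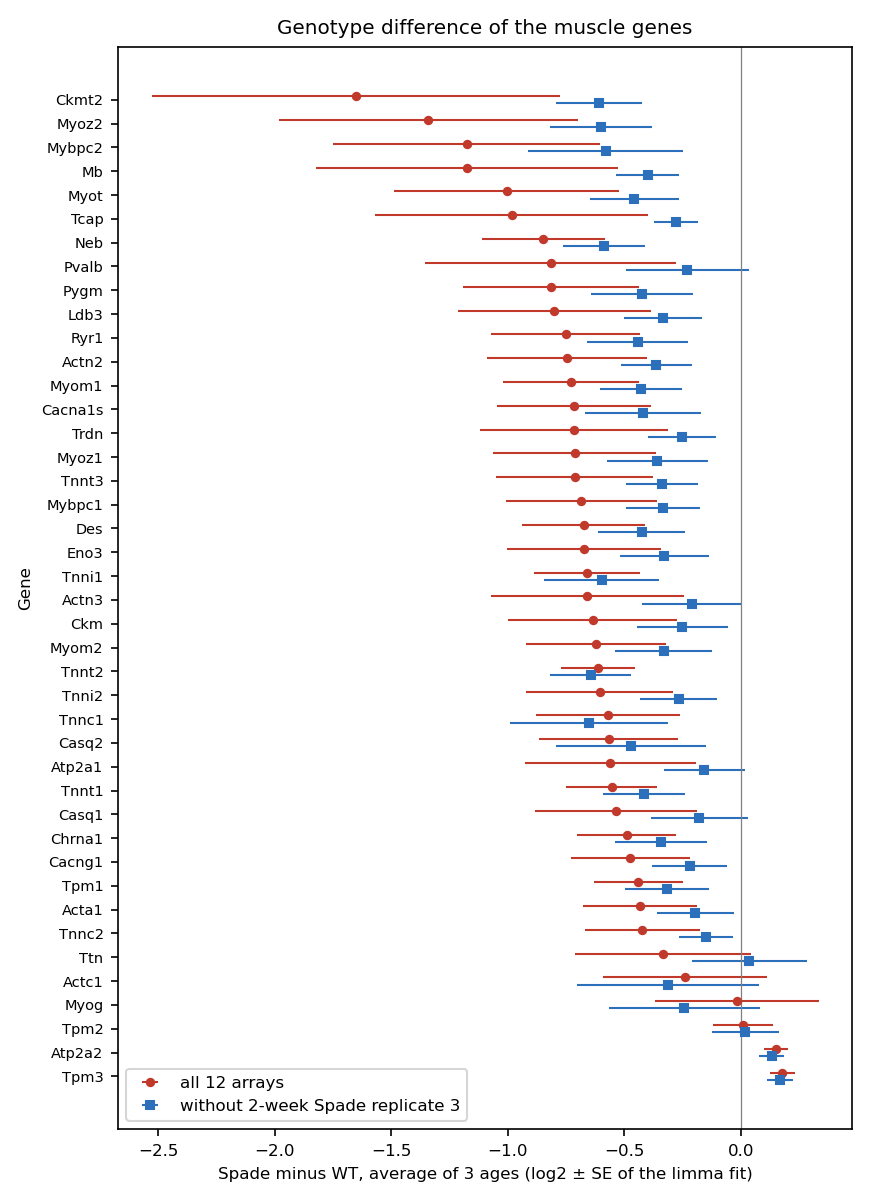
Fitted Spade minus WT difference, averaged over 3 ages, of 42 genes (rows, ordered by the fit to 12 arrays). Points are log2 differences and bars the SE of the limma fit, red with all 12 arrays and blue without 2-week Spade replicate 3; the median lies at -0.66 in red and -0.33 in blue.

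Among thin filament genes, none of 13 passed the test of the averaged difference and the median was -0.55. The smallest adjusted p of all 42 genes belonged to cardiac troponin T (Tnnt2), at 0.131 in limma for a log2 difference of -0.62 ± 0.16 (SE). It read 8.54 and 8.38 in WT and 8.52 and 8.70 in Spade at 2 weeks, 9.39 and 9.47 in WT and 8.44 and 9.02 in Spade at 4 weeks, and 9.68 and 8.97 in WT and 7.79 and 8.29 in Spade at 6 weeks. Both mutant values were lower than both WT values at 4 and at 6 weeks, and the groups overlapped at 2 weeks. A second probe set to Tnnt2 gave -0.55 on average and -1.27 at 6 weeks, where the first gave -1.29. Without the 2-week mutant array that stood apart, the difference in Tnnt2 was -0.64 ± 0.18 (adjusted p = 0.14 in limma).

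Nebulin (Neb), the ruler of thin filament length, had one of the steadier differences. It read 10.65 and 10.87 in WT against 10.39 and 8.83 in Spade at 2 weeks, 11.55 and 11.10 against 10.71 and 10.37 at 4 weeks, and 10.66 and 11.49 against 10.64 and 10.31 at 6 weeks. Every mutant value was below both WT values of its age, at 6 weeks by little for the nearest pair (10.64 against 10.66). The averaged difference was -0.85 ± 0.27 (adjusted p = 0.203 in limma) and did not pass. Skeletal actin (Acta1) differed by -0.43 ± 0.24, fast troponin T (Tnnt3) by -0.71 ± 0.34 and fast troponin I (Tnni2) by -0.61 ± 0.32, with overlapping groups at 1 age or more.

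All 13 genes of the Z disc, titin and M band had averaged differences below 0, with a median of -0.73 and 0 passing. Tcap read 10.46 and 10.60 in WT against 10.26 and 6.04 in Spade at 2 weeks, 12.07 and 12.05 against 11.93 and 11.64 at 4 weeks, and 12.05 and 12.44 against 12.02 and 11.88 at 6 weeks. The groups did not overlap at any age, but apart from the 1 low array the gaps were small, and the averaged difference went from -0.98 ± 0.59 with all arrays to -0.28 ± 0.09 without it. Myoz2 had the largest averaged difference of these 13, -1.34 ± 0.64, and read -0.60 ± 0.22 without that array. Titin (Ttn), the spring that spans the sarcomere from Z disc to M band, had -0.34 ± 0.38 and 0.03 ± 0.25 without it. Other Ttn probe sets differed in size and sign, with averaged differences from -1.05 to 0.40 over all arrays.

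Calcium handling genes followed the same course, with 8 of 9 averaged differences below 0, a median of -0.57 and 0 passing. The ryanodine receptor (Ryr1), the calcium release channel, read 9.10 and 9.23 in WT against 8.56 and 6.70 in Spade at 2 weeks, 10.54 and 10.41 against 10.07 and 9.54 at 4 weeks, and 9.60 and 10.81 against 10.26 and 10.03 at 6 weeks. Its groups were separate at 2 and 4 weeks and overlapped at 6 weeks, and the averaged difference was -0.75 ± 0.32 (adjusted p = 0.322 in limma). The averaged difference of its voltage sensor partner Cacna1s was -0.72 ± 0.33, that of triadin (Trdn), which ties calsequestrin to the release channel, was -0.72 ± 0.40, and that of parvalbumin (Pvalb), the soluble calcium buffer of fast fibres, was -0.82 ± 0.54. None of these 3 passed.

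In the energy supply genes all 5 averaged differences were below 0, with a median of -0.81 and 0 passing. Mb read 10.53 and 10.52 in WT against 10.21 and 5.57 in Spade at 2 weeks, 13.81 and 13.40 against 13.33 and 13.00 at 4 weeks, and 13.75 and 14.21 against 13.74 and 13.32 at 6 weeks. The mutant values were below both WT values at each age, at 6 weeks by little for the nearest pair (13.74 against 13.75). Cytosolic creatine kinase (Ckm) differed by -0.64 ± 0.36, beta-enolase (Eno3), a glycolytic enzyme, by -0.67 ± 0.33, and muscle glycogen phosphorylase (Pygm), which releases sugar from glycogen, by -0.81 ± 0.38. The acetylcholine receptor alpha subunit (Chrna1), which receives the motor nerve's signal, had -0.49 ± 0.21.

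Single ages were fitted as well. The median of the 42 genes was -1.22 at 2 weeks, -0.53 at 4 weeks and -0.24 at 6 weeks. In limma 0 genes passed at each of these ages, against 0.0% of all genes tested at 2 weeks, 0.0% at 4 weeks and 0.0334% at 6 weeks. The 2-week median was -0.18 without mutant replicate 3, which is nearer to 0 than the 4-week median. The 4-week median was itself -0.86 without mutant replicate 1 of that age and -0.27 without replicate 2. In the test of genotype by age, 0 of 42 genes passed with all arrays, against 0.0% of all genes, and 362 genes of the whole table had an unadjusted p under 0.05. When the partner array (mutant replicate 2 at 2 weeks) was left out, 8 genes passed, against 2.15%.

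Counted by overlap of the arrays, both mutant values lay below both WT values in 24 of 42 genes at 2 weeks (22.4% of all genes tested), in 23 at 4 weeks (15.9%) and in 12 at 6 weeks (25.7%). The 6-week count was near that share of all genes. Only Neb, Tcap and Mb had this at all 3 ages, against 2.08% of all genes. Both mutant values lay above both WT values in only 2 genes at each age, Tpm3 and Atp2a2, against 12.9%, 16.1% and 19.8%, and against 2.65% at all 3 ages.

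The 6-week difference also turned on a WT array. Its median was 0.12 without WT replicate 3, and WT replicate 3 was higher than replicate 1 by a median of 0.64 over the 42 genes. Array numbers in the labels fall in ranges that do not match the groups, and the WT replicates at 4 and at 6 weeks lie in different ranges. Against the WT array in the mutants' own range alone (replicate 1 at 4 weeks, replicate 3 at 6 weeks), the median was -0.70 at 4 weeks and -0.59 at 6 weeks, with 40 of 42 differences below 0 in each. Each rests on 1 WT array, the higher of the 2 at its age, at 4 weeks by a median of 0.41 over the 42 genes. What the array numbers mark is not given in the sources used here.

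The deposited design also describes a rank product criterion with a 2-fold change, at a false discovery rate of 0.05 per age and 0.001 over all ages. In a new implementation with 1000 permutations of values within arrays, 0 of the 42 genes met it in any of the 4 comparisons, while 97 of all genes met it over all ages (0.809%), 4 at 2 weeks (0.0334%), 16 at 4 weeks (0.134%) and 53 at 6 weeks (0.442%). This null was adopted after the counts of a first version had been seen. That version permuted ranks independently in each comparison, although the comparisons share arrays, and called 5, 8, 4 and 1 of the muscle genes, all lower in Spade, against 1.31%, 1.94%, 1.26% and 2.88% of all genes.

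The comparison of ages asks how the muscle genes of the ear change after 2 weeks of age. In WT ears from 2 to 6 weeks, slow troponin T (Tnnt1) rose by 1.61 ± 0.34 on the log2 scale (adjusted p = 0.0357 in limma) and was the 1 gene of 42 to pass, against 4.82% of all genes tested. It read 9.56 and 9.87 at 2 weeks, 11.98 and 11.03 at 4 weeks and 11.22 and 11.44 at 6 weeks. Every later WT array was above both 2-week arrays. In Spade ears it read 9.29 and 8.46, then 11.16 and 11.04, then 11.08 and 10.72, and it rose by 2.22 ± 0.34 from 2 to 4 weeks (adjusted p = 0.0279 in limma), again the 1 gene to pass, against 1.91%. The WT call was kept in 4 of 12 fits that each left out 1 array, and the mutant call from 2 to 4 weeks in 6 of 12. On MAS5 signals Tnnt1 passed in no comparison; the 1 gene to pass was then Casq2 in WT from 2 to 6 weeks (adjusted p = 0.0396 in limma) and Mb in Spade from 2 to 4 weeks (4.57 ± 0.85, adjusted p = 0.0417 in limma).

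From 2 to 6 weeks in Spade ears 6 of 42 genes passed, against 9.94% of all genes tested. Of the 6, 5 were higher (7.58% of all genes) and 1 was lower (2.36%), shares near the background. Mb rose by 5.64 ± 1.12, Tcap by 3.80 ± 1.02, Ryr1 by 2.51 ± 0.56, myomesin 2 (Myom2), a cross-linker of the M band, by 2.13 ± 0.52 and Tnnt1 by 2.03 ± 0.34. Casq2 fell by 2.14 on the log2 scale (SE 0.52). Adjusted p-values in limma ran from 0.0133 for Tnnt1 to 0.0488 for Tcap. The sizes of the genes that rose included the 2-week array that stood apart. Without it Mb rose by 3.32 ± 0.26, Tcap by 1.69 ± 0.19 and Tnnt1 by 1.61 ± 0.35, against 7.59% of all genes called. Ryr1 (1.59 ± 0.43, adjusted p = 0.0599 in limma) and Myom2 (1.27 ± 0.41, adjusted p = 0.0941 in limma) did not pass without it, nor did Casq2, whose difference of -2.42 ± 0.63 (adjusted p = 0.0562 in limma) was no smaller. Each of the 6 calls was lost in some of the fits that left out 1 array. Arrays of the other groups do not enter these differences, so leaving out 1 of them changed only the shared estimate of the spread. None of the 6 calls was kept without mutant replicate 3 or without replicate 4 at 6 weeks.

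**Figure D4:**
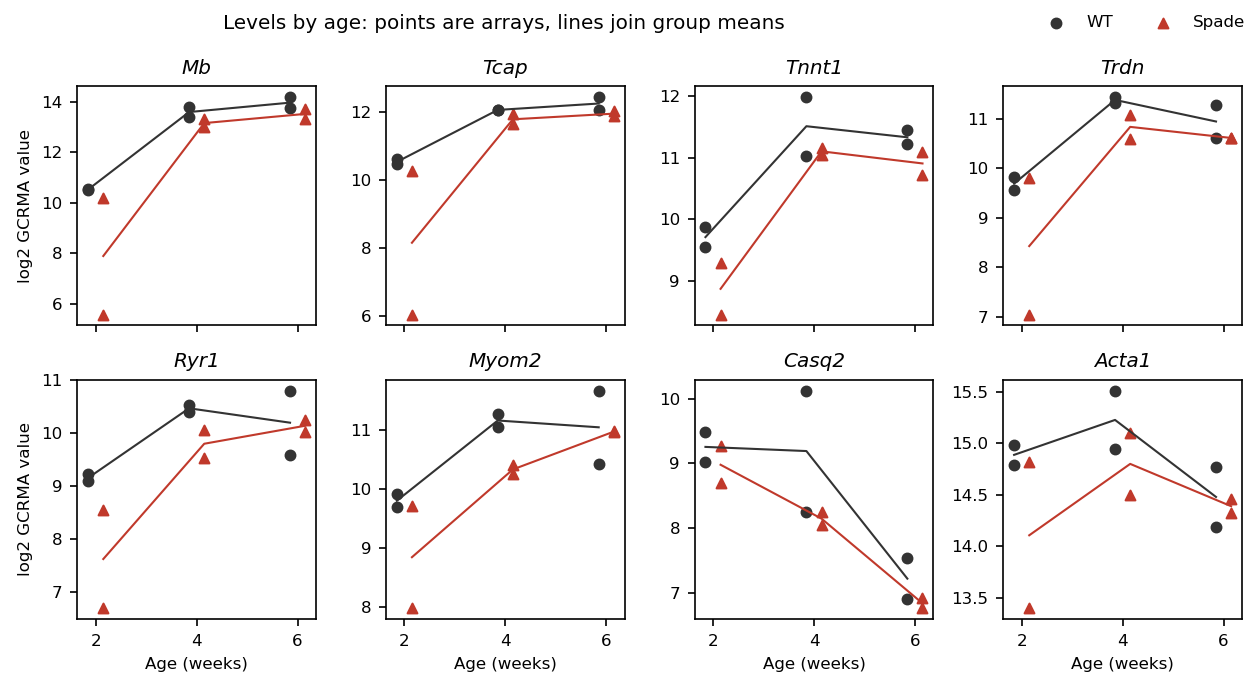
Log2 GCRMA values of 8 genes by age in weeks; black circles are WT arrays, red triangles Spade arrays, and lines join means of 2 arrays. Mb goes from 10.53 and 10.52 in WT at 2 weeks to between 13.00 and 14.21 on the later arrays, Casq2 goes down to between 6.76 and 7.54 at 6 weeks, and the low 2-week Spade triangle is replicate 3 in each panel.

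The spread between the mutant arrays at 2 weeks also entered the tests of WT ears, since all 12 arrays share 1 estimate of the spread per gene. Without mutant replicate 3, 4 genes passed from 2 to 4 weeks in WT, against 2.68% of all genes: Mb (3.08 ± 0.22), Tnnt1 (1.79 ± 0.28), Trdn (1.70 ± 0.24) and Tcap (1.53 ± 0.15). With all arrays 0 passed there, against 0.459%, and Tnnt1 had an adjusted p of 0.068. From 2 to 6 weeks in WT, 7 genes passed without it, against 12.5%: Mb rose by 3.45, Tcap by 1.72, Tnnt1 by 1.61, Trdn by 1.26, Myom2 by 1.25 and Ckmt2 by 1.12, and Casq2 fell by 2.04. Leaving out replicate 2 in its place gave the same genes, but that is not a second check. Either fit leaves 1 array in that group, which adds nothing to the estimate of the spread.

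Replicates of Mb and Tcap lay close together in WT. Mb read 10.53 and 10.52 at 2 weeks, then between 13.40 and 14.21 on the 4 later WT arrays. Tcap read 10.46 and 10.60, then between 12.05 and 12.44. Mutant replicate 2 at 2 weeks stood beside the WT arrays of its age in both genes, and the 4 later mutant arrays lay between 13.00 and 13.74 for Mb and between 11.64 and 12.02 for Tcap. The later groups thus lay above the 2-week groups with no overlap in either genotype.

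Casq2 was lowest at 6 weeks. It read 9.03 and 9.48 in WT at 2 weeks, 10.12 and 8.25 at 4 weeks, and 6.90 and 7.54 at 6 weeks. The mutant arrays read 9.26 and 8.69, then 8.04 and 8.24, then 6.76 and 6.91. All 4 arrays at 6 weeks were below all 8 earlier arrays. In WT the fitted difference from 2 to 6 weeks was -2.04 ± 0.52 (adjusted p = 0.0583 in limma). The fast Casq1 had -0.17 over the same ages in WT.

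Myog read 3.01 and 3.66 in WT at 2 weeks and at most 2.37 on 7 of the 8 later arrays, with 4.15 on WT replicate 1 at 4 weeks. No test of Myog by age passed on the GCRMA values of all arrays. On MAS5 signals, the alternative summary of the probes, Myog fell by 1.86 (SE 0.38, adjusted p = 0.0246 in limma) from 2 to 6 weeks in Spade. Myog was among the tested genes only through that WT array and mutant replicate 3 at 2 weeks, so this fall is not support. Over the whole list the WT median was 0.72 from 2 to 4 weeks, with 38 of 42 differences above 0, and -0.46 from 4 to 6 weeks, with 0 genes passing against 0.0% of all genes. The WT median from 4 to 6 weeks was -0.16 without replicate 1 at 6 weeks and -0.84 without replicate 3. In Spade the medians were 1.40 and -0.18, and from 4 to 6 weeks 0 genes passed, against 0.0%.

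Other measures moved with age too, and their part in the age results was not tested. All 2-week arrays lie in an array number range of their own, so age and that range cannot be told apart between 2 weeks and later. The 3′ minus 5′ difference of the Actb control probe sets, a measure of RNA integrity, ran from 0.54 to 0.66 at 2 weeks, 0.70 to 0.97 at 4 weeks and 0.97 to 1.15 at 6 weeks. All 10 adipocyte genes tested had differences above 0 from 2 to 6 weeks in WT, and 8 of them passed, against 4.82% of all genes tested. Hair shaft genes had a mean of 4.75 and 5.89 on the WT arrays at 2 weeks and between 2.44 and 3.85 on later WT arrays.

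Fast and slow isoforms were compared within each array, as the log2 value of the fast gene minus that of the slow gene, because the levels of different probe sets cannot be set against each other. A change of that difference between groups is a change in their relative level. In the alpha-actinin pair the second gene, Actn2, belongs to all fibres, so that pair sets a fast-fibre gene against an all-fibre gene. For 9 pairs, an exact permutation test (two-sided) exchanged genotype within age over all assignments, with a smallest possible p of 0.00926. No pair passed after adjustment over the 9 pairs.

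The troponins showed no common direction by genotype. The averaged Spade minus WT change was -0.16 for troponin T (Tnnt3 against Tnnt1, exact p = 0.657), 0.06 for troponin I (Tnni2 against Tnni1, exact p = 0.815) and 0.15 for troponin C (Tnnc2 against Tnnc1, exact p = 0.694). The leave-one-out values of all 3 ran to both sides of 0. With age, the troponin T difference in WT moved by -1.14 from 2 to 4 weeks and by -1.50 from 2 to 6 weeks, where Tnnt3 itself had 0.65 and 0.11. In both genotypes every 4- and 6-week array had a lower Tnnt3 minus Tnnt1 difference than the WT arrays and mutant replicate 2 at 2 weeks.

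The remaining pairs were as scattered. The calsarcins (Myoz1 against Myoz2) had 0.63 (exact p = 0.194), and 0.24 when mutant replicate 3 at 2 weeks was left out. Myosin binding protein C (Mybpc2 against Mybpc1) had -0.49 (exact p = 0.148), with -0.25 without that array and -0.29 without mutant replicate 2 at 4 weeks. The averaged change was 0.09 (exact p = 0.574) for alpha-actinin (Actn3 against Actn2) and 0.03 (exact p = 0.926) for calsequestrin (Casq1 against Casq2). By age in WT, from 2 to 6 weeks, Casq1 minus Casq2 moved by 1.87 and Mybpc2 minus Mybpc1 by 1.27. The direction by age was thus toward the slow gene in troponin T and toward the fast gene in calsequestrin and myosin binding protein C. Over the same ages the other pairs moved by -0.66 (troponin C), -0.20 (calsarcins), 0.125 (troponin I), 0.16 (Tpm1 against Tpm3), 0.205 (alpha-actinin) and 0.61 (Atp2a1 against Atp2a2). Signs differed among the pairs, and no pair change by age was tested.

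**Figure D5:**
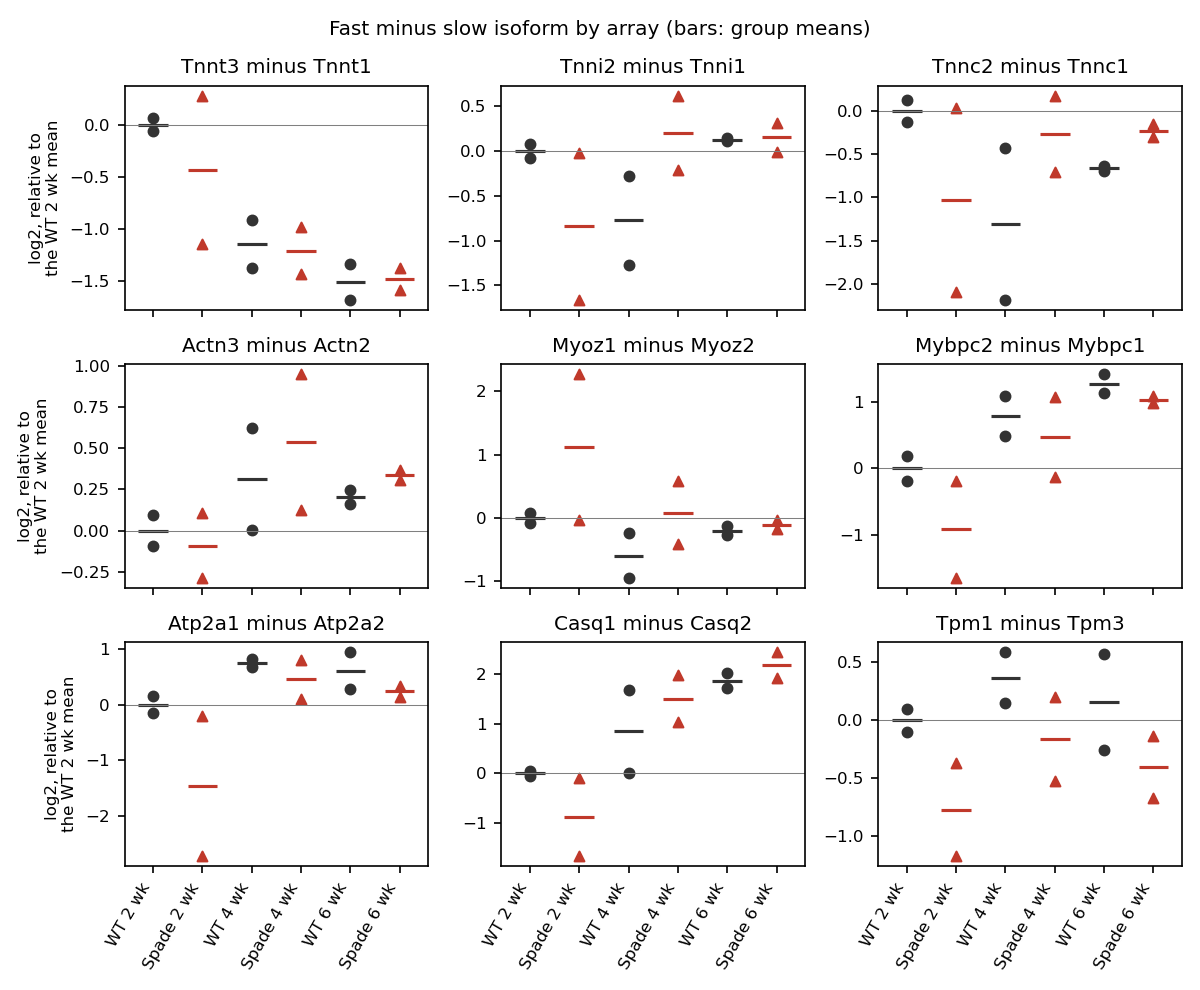
Fast minus slow log2 difference by array for 9 pairs (for Actn3 minus Actn2, fast-fibre minus all-fibre), relative to the mean of the WT arrays at 2 weeks. Black circles are WT arrays, red triangles Spade arrays and bars group means. Tnnt3 minus Tnnt1 lies below 0 on every 4- and 6-week array and Casq1 minus Casq2 well above 0 on the 6-week arrays.

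For tropomyosin the difference depended on the choice of probe set. Tpm1 against Tpm3 had the smallest exact p, 0.037 (0.333 adjusted over 9 pairs), with -0.62, but the mean of each gene's probe sets gave 0.01. Atp2a1 against Atp2a2 had -0.71 (exact p = 0.0833), with -0.29 when mutant replicate 3 at 2 weeks was left out, -1.13 when replicate 2 was, and -0.41 by the mean of each gene's probe sets. The probe sets used for Tpm3 and Atp2a2 were the ones with the highest mean, and they varied little: Tpm3 read between 12.91 and 13.34 on all arrays and Atp2a2 between 12.31 and 12.74. Their averaged genotype differences were 0.18 ± 0.05 and 0.15 ± 0.05, with adjusted p of 0.18 and 0.231 in limma. Both genes also have transcripts outside skeletal muscle, and which transcripts each probe set reads was not tested.

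Some other probe sets of these genes differed from the ones used. A second Tpm3 probe set read 5.67 and 5.28 in WT and 4.52 and 3.83 in Spade at 2 weeks, 9.56 and 7.38 in WT and 7.33 and 7.64 in Spade at 4 weeks, and 7.80 and 8.61 in WT and 7.65 and 7.43 in Spade at 6 weeks. Every later array was above every 2-week array. When every probe set was fitted on its own, an alternative added after these differences had been seen, this probe set rose by 2.73 ± 0.61 in WT from 2 to 6 weeks (adjusted p = 0.0336 in limma; 7.41% of all probe sets passed there), while another Tpm3 probe set fell by 0.88 (SE 0.19, adjusted p = 0.0318 in limma). The averaged genotype difference of the rising probe set was -0.98, opposite in sign to that of the probe set used.

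Atp2a2, the SERCA pump of slow and heart muscle, also had probe sets that differed. A second one read 11.11 and 11.17 in WT and 10.93 and 10.30 in Spade at 2 weeks, and between 11.73 and 12.44 on all later arrays. It rose by 1.40 ± 0.27 from 2 to 6 weeks in Spade (adjusted p = 0.0216 in limma; 9.66% of all probe sets passed) and had an averaged genotype difference of -0.32. For Tpm2, beta-tropomyosin, the probe set used had 0.01 and another had -0.82. In the fit of every probe set, 0 of the muscle genes had a probe set that passed for genotype, against 0.218% of all probe sets.

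A wider set of 64 skeletal muscle genes outside the list gave the same picture. Of these, 51 were tested, 0 passed for the averaged genotype difference, 50 had differences below 0, and the median was -0.69. The set included genes of the triad, the Z disc, the sarcoglycan complex, the neuromuscular junction and fibre metabolism. On mutant replicate 3 at 2 weeks 49 of the 51 were lower than on replicate 2, with a median of -1.70. In Spade from 2 to 4 weeks 1 of 51 passed, against 1.91% of all genes. It was Ky (1.61 ± 0.30, adjusted p = 0.0403 in limma), which encodes a muscle protein whose loss causes kyphoscoliosis in mice. From 2 to 6 weeks in Spade 3 passed, Ky, Lmod2 (leiomodin 2, a thin filament nucleator) and Pfkm (the muscle phosphofructokinase), all higher, 3 of 51 against 7.58% of all genes higher there.

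Beside the genotype differences of the muscle genes, other cell types differed as well. Averaged over ages, all 10 macrophage genes had Spade minus WT differences above 0, with a median of 0.65, and 3 of them passed. All 4 neutrophil genes were above 0 too, with a median of 2.38. Of these, 1 passed, S100a8 at 2.27 ± 0.36 (adjusted p = 0.0356 in limma). Of all genes tested, 0.643% passed there, 64 higher and 13 lower in Spade. The macrophage genes that passed were Csf1r, the receptor for the macrophage growth factor, and the complement genes C1qa and C1qc, with 0.65 ± 0.09, 0.85 ± 0.12 and 0.81 ± 0.12. For 14 cartilage genes the median was -0.61 and for 10 adipocyte genes -0.39, with 0 passing in each, while 7 smooth muscle genes had 0.05 and 10 keratinocyte genes -0.01. Desmin (Des), 1 of the 7 smooth muscle genes, is also among the muscle genes described here, with -0.675. The part of these cell types in the muscle differences was not tested.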

How the data were processed

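The log2 values are GCRMA values as deposited by the authors, who corrected and normalized 12 arrays together in R, per the series design text; tool versions are not given in the sources used here. The intensity values are MAS5 signals as deposited, with detection calls, and served for calls and as an alternative (floor 50, then log2). The authors' series matrix holds the same log2 values, and a rescaled copy of the signals was not used here. Raw scans were not analysed here.

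Of 45101 probe sets, 34958 named 1 gene, 932 several and 9211 none in the array annotation. The probe set with the highest mean was kept for each gene, and genes with 4 or more on at least 2 arrays were kept for testing. The fit (limma 3.58.1, R 4.3.3) had 6 group means, 6 residual degrees of freedom, a variance trend and Benjamini-Hochberg adjustment over 11984 genes. It was tested on simulated data. Pairs were tested by exact permutation. The number of arrays limits precision. All 44 genes were eligible to be named, and from each other list up to 4 genes that passed and up to 4 that did not. The members, lists and tests were chosen with earlier results of these data known.

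Replicate numbers shared by genotypes at an age (1 per age) do not pair the samples: the correlations of their deviations were -0.12, 0.19 and 0.25. Alternatives were other filters, probe set summaries, MAS5, scalings, variance settings, blocks for replicate number and array range, only the arrays compared, the 2-fold and rank product criteria, and each array left out.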

Additional observations from a re-analysis of the deposited data

How the results depend on the processing

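Counts of genes past the threshold moved by more than 1.5 times under these settings, and the cause was not tested except where fewer arrays are named. The share of all genes called is given above for some of these settings only. A count here therefore shows how far a setting matters and is no result about the muscle genes. For the average over ages, the random replicate block gave 1 (Tnnt2, -0.63 ± 0.13, adjusted p = 0.0471 in limma) in place of 0. For WT from 2 to 4 weeks the replicate block gave 1, only the arrays compared 2, and both Spade replicate 3 at 2 weeks and WT replicate 1 at 4 weeks left out 2, in place of 0. For WT from 2 to 6 weeks no filter and median centring gave 0, only the arrays compared and every probe set 3, and both arrays left out 7, in place of 1. For Spade from 2 to 4 weeks no filter and only the arrays compared gave 0, a filter at 6 and every probe set 2, and both arrays left out 3, in place of 1. For Spade from 2 to 6 weeks no filter gave 1, the mean of probe sets 2 and only the arrays compared 0, in place of 6. The rank product with independent ranks gave 5 over all ages, 8 at 2 weeks, 4 at 4 weeks and 1 at 6 weeks, in place of 0. The fit of every probe set, the fit without both arrays and the independent ranks were chosen after seeing the data. The paired fit moved no other count by more than that factor.

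Leaving out 1 array at a time gave 0 to 30 genes for the average over ages and for 2 weeks, 0 to 0 at 4 and at 6 weeks, 0 to 4 for WT from 2 to 4 weeks, 0 to 7 for WT from 2 to 6 weeks, 0 to 0 from 4 to 6 weeks in either genotype, 0 to 32 and 0 to 31 for Spade from 2 to 4 and 2 to 6 weeks, and 0 to 8 for genotype by age; each highest count above 0 came, alone or tied, without Spade replicate 2 at 2 weeks. Where an arm keeps 1 array, that array is assumed to vary like the other groups.

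Pair changes reversed on MAS5 signals for Tnni2 against Tnni1 (-0.16) and Casq1 against Casq2 (-0.076), and with the mean of probe sets for Tpm1 against Tpm3 (0.012). With 1 array left out they ran from -0.396 to 0.076 for Tnnt3 against Tnnt1, -0.22 to 0.33 for Tnni2 against Tnni1, -0.21 to 0.50 for Tnnc2 against Tnnc1, -0.05 to 0.23 for Actn3 against Actn2 and -0.25 to 0.31 for Casq1 against Casq2. The array range as a block could not be fitted for 4 or 6 against 2 weeks within a genotype. Centring moved the median of all genes by up to 0.13.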
